A study of Mus musculus with 4 samples.

Results

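CD40 and 9 other receptors of the tumour necrosis factor (TNF) receptor superfamily were followed in dendritic cells of the mouse spleen. The members were the loci whose gene name was Cd40, Tnfrsf9, Tnfrsf1a, Tnfrsf1b, Ltbr, Tnfrsf4, Tnfrsf18, Tnfrsf11a, Fas or Tnfrsf13c. Each name matched 1 locus, which gave 10 of the 30043 loci in the expression table, and no member shared its locus with another gene name. The cells were CD4 dendritic cells, sorted as CD11c+ I-Ab+ CD4+ CD8-, from C57BL/6 mice that were all heterozygous for Gpr183, controls included. The control group had received PBS (100 uL) and the other group sheep red blood cells (SRBC, 1000000000 cells), each for 1 h, and each group had 2 libraries. The comparison asks how transcripts of these cells differ soon after injected foreign red cells. The sources used here give no age or sex and do not tell separate mice from pooled ones or repeat preparations, so p-values reflect library-to-library spread, possibly technical.

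TNF receptors are surface proteins that bind trimeric ligands of the TNF family and pass the signal on through adaptor proteins. Receptors such as CD40, 4-1BB and TNFR2 recruit TRAF adaptors and activate NF-kB, whereas TNFR1 and Fas carry a death domain and can start cell death. In dendritic cells CD40 is the receptor through which helper T cells, by way of CD40 ligand, license antigen presentation, and lymphotoxin signals through the lymphotoxin beta receptor support the CD4+ subset in the spleen.

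The labelled cell type was checked first. Itgax, which encodes CD11c, measured 180 to 253 FPKM (fragments scaled for sequencing depth and transcript length, so that levels of different genes can be compared) over the 4 libraries, Cd4 75.8 to 96.4 and Cd8a 1.20 to 2.63. CD4+ dendritic cell markers were called higher in 3 of 11 and lower in 1, Clec4a4 (mean 5.72 after PBS, 1.83 after SRBC). Counts were 1 higher and 4 lower after quantile normalization, 1 and 2 with TPM rescaling, and 5 and 1 with a robust variance model. With every library kept, the Clec4a4 call was lost with no filter on low values. Over all 11020 tested loci 13.5% were called higher and 6.2% lower. Of 6 tested CD8+ dendritic cell markers, Ly75 (6.24 to 23.3) was called higher, Clec9a (10.1 to 20.7) lower and the others not. With upper-quartile or TPM rescaling 1 was higher and 3 lower. With every library kept, the Clec9a call was lost with no filter and with the replicate block. Macrophage and monocyte markers had no calls in the main test and included Adgre1 at 33.6 to 54.1 and C1qb at 25.0 to 49.6. Adgre1 was called lower under each rescaling, and C1qb higher with a robust variance model. The median log2 fold change of these markers was 0.13, or -0.043 to 0.31 with single libraries left out. B cell markers ran from Vpreb3 at 0.254 to 2.05 up to Cd22 at 29.8 to 43.2, with Cd79a at 3.39 to 14.9. Summed FPKM over all loci ran from 377167 to 558016 and was higher in both SRBC libraries. Read totals were not used here. Among loci under 0.3 FPKM the most common ratio of a library's value to that of PBS library 1, which reflects the worth of a single fragment, was 0.801, 0.946 and 0.920 in PBS library 2, SRBC library 1 and SRBC library 2. Erythroid markers summed to 65.3 and 12.8 FPKM in the PBS libraries and 114 and 197 in the SRBC libraries, with 4 of 5 tested called higher, or 0 to 5 over the alternatives (0 after quantile normalization and with no filter, 2 without SRBC library 2). Neutrophil markers summed to 66.2, 14.3, 45.7 and 97.8, with 3 of 6 called higher and 1 lower; higher calls ran from 0 (replicate block, no filter, or without SRBC library 2) to 4, and were 1 under each rescaling and without PBS library 2. The part of these cells in the results below was not tested. Xist stood at 0.210 and 0.327 FPKM in the PBS libraries and at 339 and 306 in the SRBC libraries, while the Y-linked Ddx3y measured 17.2 and 20.4, then 0.0307 and 0.00819. A sex difference and the SRBC treatment therefore cannot be told apart in any comparison below.

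Upstream sequences are shown for receptors on both sides of the comparison, since Tnfrsf9, Tnfrsf1b and Fas rose after SRBC and Tnfrsf1a did not pass the test. They run from 250 bases before to 50 bases after an annotated transcription start, from RefSeq on GRCm38.p6, 5′ to 3′ on the gene's strand. RefSeq entries matched 9 of the 10 members, Cd40 being the other, with a pair of starts for Tnfrsf9. Capitals mark matches, on either strand, to the NF-kB consensus or to the AP-1 motif TGANTCA. The windows are chr4:150919905-150920204 and chr4:150927749-150928048 for the upstream and downstream starts of Tnfrsf9 (plus strand), chr4:145246821-145247120 for Tnfrsf1b (minus strand), chr19:34290409-34290708 for Fas (plus strand) and chr6:125349473-125349772 for Tnfrsf1a (plus strand).
Tnfrsf9 upstream start: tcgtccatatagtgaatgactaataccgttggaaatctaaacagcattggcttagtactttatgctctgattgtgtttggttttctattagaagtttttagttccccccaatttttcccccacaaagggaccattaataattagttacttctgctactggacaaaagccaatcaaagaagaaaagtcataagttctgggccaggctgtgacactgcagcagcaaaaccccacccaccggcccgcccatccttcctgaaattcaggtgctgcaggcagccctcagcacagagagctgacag
Tnfrsf9 downstream start: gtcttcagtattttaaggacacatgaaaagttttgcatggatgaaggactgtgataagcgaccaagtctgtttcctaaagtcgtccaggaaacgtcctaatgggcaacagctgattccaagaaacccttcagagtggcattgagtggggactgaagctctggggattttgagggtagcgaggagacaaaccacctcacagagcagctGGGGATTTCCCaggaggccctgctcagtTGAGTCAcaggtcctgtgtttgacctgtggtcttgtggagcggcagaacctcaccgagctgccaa
Tnfrsf1b: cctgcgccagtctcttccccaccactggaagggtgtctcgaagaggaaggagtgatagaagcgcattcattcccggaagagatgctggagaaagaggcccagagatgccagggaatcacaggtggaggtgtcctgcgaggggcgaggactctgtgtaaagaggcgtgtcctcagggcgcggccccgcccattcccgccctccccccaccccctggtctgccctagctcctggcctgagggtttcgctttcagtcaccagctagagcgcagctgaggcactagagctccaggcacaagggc
Fas: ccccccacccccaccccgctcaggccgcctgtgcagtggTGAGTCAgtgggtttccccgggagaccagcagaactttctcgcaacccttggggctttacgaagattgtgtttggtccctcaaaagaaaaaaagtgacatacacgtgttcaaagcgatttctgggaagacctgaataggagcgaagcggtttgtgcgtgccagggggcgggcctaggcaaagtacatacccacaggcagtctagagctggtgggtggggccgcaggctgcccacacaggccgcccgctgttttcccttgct
Tnfrsf1a: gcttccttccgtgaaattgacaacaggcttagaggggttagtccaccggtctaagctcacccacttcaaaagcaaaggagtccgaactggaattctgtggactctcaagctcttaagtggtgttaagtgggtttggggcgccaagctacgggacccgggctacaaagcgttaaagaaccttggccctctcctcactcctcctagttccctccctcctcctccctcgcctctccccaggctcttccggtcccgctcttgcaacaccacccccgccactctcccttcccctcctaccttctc

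The NF-kB consensus was found in 1 of the 10 member windows, the downstream start of Tnfrsf9. There 2 overlapping matches spanned bases -43 to -33 before the start. The AP-1 motif was found in 2 windows, beginning at base -15 before the downstream Tnfrsf9 start and at base -211 before the Fas start. Of all 32851 mouse windows of 300 bases, 8.46% held the NF-kB consensus and 7.81% the AP-1 motif. These matches describe letters in the windows and are not measured binding sites.

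After 1 h of SRBC, 5 of the 10 receptors were higher by limma at an adjusted p under 0.05 and 0 were lower, while the other 5 were not called. All 10 passed the filter on low values. Over the 11020 named loci tested with them, 13.5% were called higher and 6.2% lower. Higher calls made up 68.5% of all calls on the deposited scale and 27.9% to 58.3% under 4 rescalings, of which TPM rescaling moved the median of all loci from 0.070 to -0.32. The median log2 fold change was 0.57 over the 10 members and 0.070 over all tested loci. The called members were Tnfrsf1b, Cd40, Fas, Tnfrsf9 and Ltbr, and in each the SRBC libraries lay above both PBS libraries; the groups of the other 5 members overlapped. Among all tested loci 34.3% had non-overlapping groups with SRBC higher and 24.7% with SRBC lower. Log2 fold changes subtract PBS from SRBC means of log2(FPKM + 1), so changes of scarce transcripts are understated, with n = 2 libraries per group throughout. In RNA from bulk sorted cells, a change in the share of cells that carry a transcript and a change in RNA per cell cannot be told apart.

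**Figure D1:**
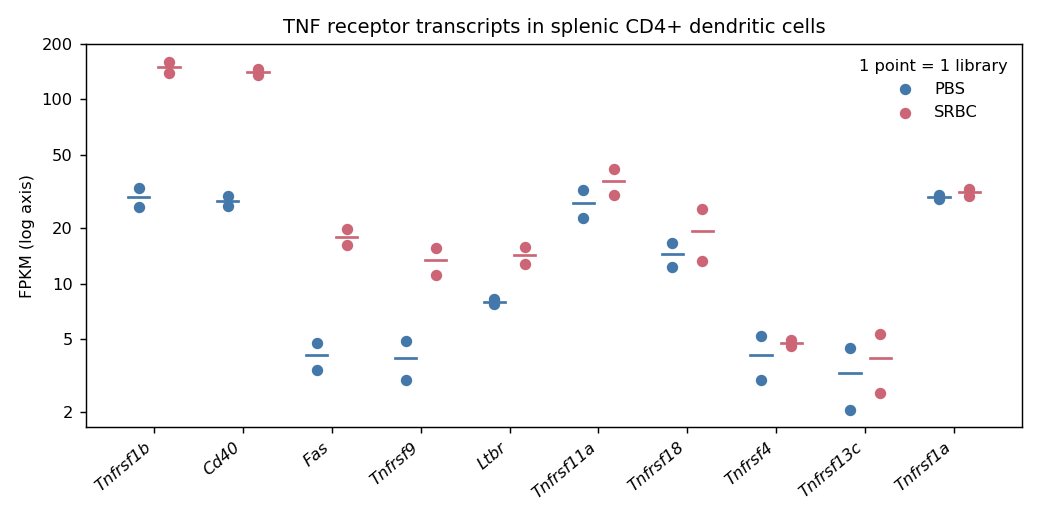
FPKM (log axis) of the 10 receptor transcripts in each library, with 1 point per library, short lines at group means, PBS in blue and SRBC in red, ordered by log2 fold change. The SRBC points of Tnfrsf1b and Cd40 lie between 136 and 160 and their PBS points between 26.1 and 32.9, whereas the points of Tnfrsf1a stay between 28.8 and 32.8 in both groups.

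Cd40 (chromosome 2, 165055627 to 165072948, GRCm38) measured 26.4 and 30.0 FPKM after PBS and 145 and 136 after SRBC. Both SRBC libraries were well above both controls, and the rise was 5.00-fold, from 28.2 ± 2.53 (SD) to 141 ± 6.41. The log2 fold change was 2.28 ± 0.22 SE (95% interval 1.84 to 2.73, limma adjusted p = 1.5e-09). In level Cd40 moved from the 84.3rd to the 96.0th percentile of tested loci.

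Tnfrsf1b encodes TNFR2, the TNF receptor without a death domain, which responds best to membrane-bound TNF (chromosome 4, 145213463 to 145246870). Its level was 26.1 and 32.9 FPKM after PBS and 139 and 160 after SRBC, a 5.07-fold rise (log2 fold change 2.31 ± 0.22 SE, limma adjusted p = 1.7e-09). The receptor for the same ligand with a death domain, TNFR1, is encoded by Tnfrsf1a (chromosome 6, 125349362 to 125362484). Tnfrsf1a measured 28.8 and 30.2 FPKM after PBS and 29.8 and 32.8 after SRBC, so the groups overlapped. Its log2 fold change was 0.079 ± 0.22 SE (95% interval -0.37 to 0.53, limma adjusted p = 0.85), and the estimate was negative, still without a call, under each of 4 rescalings of the libraries. A ratio taken within a library does not change when each library is multiplied by its own factor. It can change under quantile normalization. The ratio of Tnfrsf1b to Tnfrsf1a was 0.905 and 1.09 in the PBS libraries and 4.68 and 4.87 in the SRBC libraries, so near-equal levels of the TNF receptor transcripts became an excess of Tnfrsf1b. The ratio of Cd40 to Tnfrsf1b stayed between 0.854 and 1.04 in all 4 libraries.

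Fas, the death receptor for Fas ligand (chromosome 19, 34290666 to 34327772), measured 3.40 and 4.77 FPKM after PBS and 16.1 and 19.9 after SRBC. The rise was 4.41-fold (log2 fold change 1.91 ± 0.26 SE, limma adjusted p = 1.3e-06), and both SRBC libraries lay above the controls. Tnfrsf9 encodes 4-1BB, a costimulatory receptor best known on activated T cells (chromosome 4, 150914562 to 150946102). It measured 2.99 and 4.87 FPKM after PBS and 11.1 and 15.6 after SRBC, a 3.40-fold rise (log2 fold change 1.55 ± 0.27 SE, limma adjusted p = 7.7e-05). Tnfrsf9 overlaps Camta1, annotated on the opposite strand, and the sources used here do not state whether reads kept their strand, so reads of such overlapping genes cannot be told apart. Camta1 itself measured 2.95 and 5.23, then 5.75 and 6.19, and was not called (log2 fold change 0.49, limma adjusted p = 0.24).

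Ltbr encodes the lymphotoxin beta receptor, which binds lymphotoxin alpha-beta and LIGHT (chromosome 6, 125306571 to 125313885). It measured 8.21 and 7.76 FPKM after PBS and 12.9 and 15.8 after SRBC. The 1.80-fold rise was the smallest among the called members (log2 fold change 0.77 ± 0.25 SE, 95% interval 0.26 to 1.27, limma adjusted p = 0.027). The call was lost without SRBC library 1 (adjusted p = 0.097) or SRBC library 2 (adjusted p = 0.38), under upper-quartile or TPM rescaling and when scarce loci were kept in, and limma adjusted p ran from 0.013 to 0.38 over the alternatives. The authors' deposited table gave Ltbr a q of 0.187, and a q of 0.00101 to each of Cd40, Tnfrsf1b, Fas and Tnfrsf9. Those 4 were called under all 13 alternatives tried, with adjusted p no higher than 0.041.

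**Figure D2:**
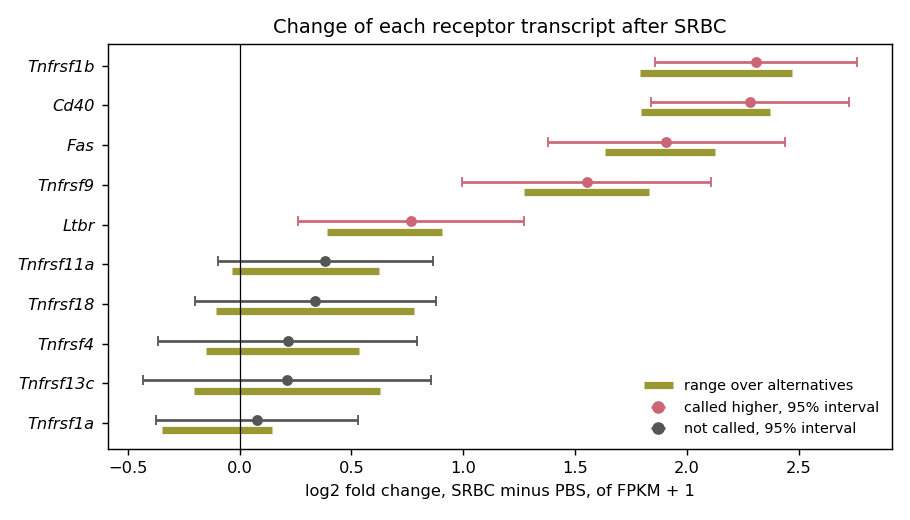
Log2 fold change (SRBC minus PBS, of FPKM + 1) of the 10 receptor transcripts, with points and bars for the estimate and its 95% interval, red where called higher and grey where not called, and an olive bar below each for the range of estimates over the alternatives. Tnfrsf1b, Cd40, Fas and Tnfrsf9 stay at or above 1.27 in every alternative, whereas the olive bars of the 5 receptors that were not called all cross 0.

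Tnfrsf11a encodes RANK, the receptor for RANK ligand, known from dendritic cells and osteoclast precursors (chromosome 1, 105780718 to 105847981). It measured 22.8 and 32.2 FPKM after PBS and 41.7 and 30.4 after SRBC, with overlapping groups (log2 fold change 0.38 ± 0.24 SE, 95% interval -0.099 to 0.86, limma adjusted p = 0.27). Tnfrsf18 and Tnfrsf4 encode GITR and OX40, costimulatory receptors of T cells, and lie 9.55 kb apart on chromosome 4 (156026164 to 156028895 and 156013843 to 156016612). Tnfrsf18 measured 12.4 and 16.6 FPKM after PBS and 13.2 and 25.4 after SRBC (log2 fold change 0.34 ± 0.26 SE, 95% interval -0.20 to 0.88), and the single higher library was SRBC library 2. Its log2 fold change was 0.78 without SRBC library 1 and -0.11 without SRBC library 2. An antisense transcript, Gm16008, is annotated over Tnfrsf18, and another gene, Gm27818, over Fas. Tnfrsf4 measured 2.99 and 5.22, then 4.96 and 4.61 (log2 fold change 0.21 ± 0.28 SE, 95% interval -0.37 to 0.79). The limma adjusted p was 0.41 for Tnfrsf18 and 0.65 for Tnfrsf4. The intervals of these 3 genes include both no change and, at their upper ends, increases near those of Ltbr.

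Tnfrsf4, Tnfrsf18 and Tnfrsf9 are best known from T cells, so T cell markers are given beside them. The 11 T cell markers summed to 16.6 and 9.27 FPKM after PBS and 15.6 and 24.1 after SRBC, and 5 of them passed the filter. Of these 5, 1 was called higher, Cd5, chosen after its values were seen (5.97 and 5.16, then 9.75 and 11.5 FPKM). The Cd5 call was lost in 5 of 13 alternatives, among them without SRBC library 1 or SRBC library 2, with adjusted p from 0.010 to 0.32 over the alternatives. Cd3e measured 4.32, 0.990, 1.77 and 3.25 FPKM in PBS libraries 1 and 2 and SRBC libraries 1 and 2, and the locus that holds Foxp3 and 4930524L23Rik stood at 0.440 to 0.708. Over all tested loci 13.5% were called higher and 6.2% lower. The part of T cells in these levels was not tested.

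Tnfrsf13c encodes the BAFF receptor, a survival receptor of B cells (chromosome 15, 82221743 to 82224369). It measured 4.45 and 2.07 FPKM after PBS and 2.55 and 5.32 after SRBC, with overlapping groups (log2 fold change 0.21 ± 0.32 SE, 95% interval -0.43 to 0.86, limma adjusted p = 0.69). Its high libraries were PBS library 1 and SRBC library 2. The same order within each group was shown by 9 of the 12 B cell markers. It was also shown by 9 of 11 T cell, 5 of 6 NK cell and 5 of 6 plasmacytoid dendritic cell markers. The same held for 7 of 9 macrophage and monocyte, 4 of 6 neutrophil and 5 of 6 erythroid markers. Of the CD4+ and CD8+ dendritic cell markers, 4 of 11 and 3 of 7 showed it. The B cell markers included Cd79a with 9.27, 3.39, 5.63 and 14.9 FPKM and Pax5 with 2.65, 1.28, 0.960 and 3.82. The 12 markers summed to 92.3, 74.4, 74.3 and 95.1 FPKM, none was at 0 in all libraries, and 2 were called higher and 0 lower, or 0 to 4 higher and 0 or 1 lower over the alternatives (4 and 0 without PBS library 1, 0 and 0 without SRBC library 2, 1 and 1 without PBS library 2, 1 and 0 without SRBC library 1). Both called markers, Blk (7.29 and 5.26, then 13.0 and 13.4 FPKM) and Vpreb3 (0.686 and 0.254, then 1.28 and 2.05), were higher in both SRBC libraries. With every library kept, the Blk call was lost with no filter and with TPM rescaling. The Vpreb3 call was lost with no filter, with a pseudocount of 0.1, with the replicate block and under each of 4 rescalings. Ms4a1 was also higher in both SRBC libraries, and Cd22 (43.2 and 41.8, then 35.3 and 29.8), Cr2 and Ebf1 lower, all without a call. Over all tested loci 13.5% were called higher. Cd40, which B cells also carry, was higher in both SRBC libraries. The part of B cells in the level of either receptor was not tested.

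**Figure D3:**
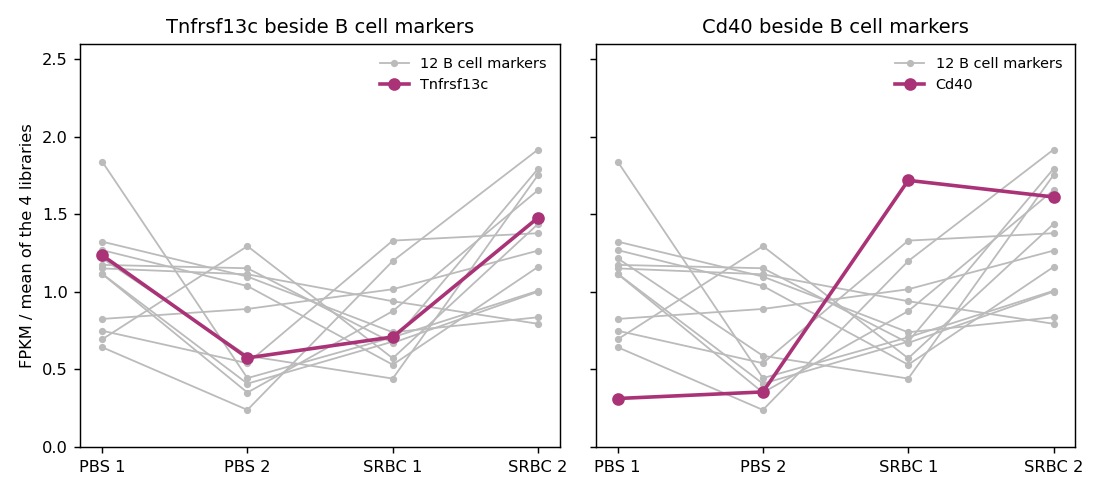
FPKM in each library divided by the mean of the 4 libraries, for Tnfrsf13c (left, purple) and Cd40 (right, purple), each beside the 12 B cell markers (grey). Within each group Tnfrsf13c and 9 of the 12 markers are higher in PBS library 1 and SRBC library 2. Most markers of non-dendritic cell types also show this order (9 of 11 for T cells). Among markers of CD4+ and CD8+ dendritic cells, 4 of 11 and 3 of 7 show it. Cd40 is high in both SRBC libraries.

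The order of the receptors by level changed with treatment. After PBS, Tnfrsf1a (29.5 FPKM), Tnfrsf1b (29.5), Cd40 (28.2) and Tnfrsf11a (27.5) stood together at the top, and the ranges of neighbours in this group overlapped. Tnfrsf18 (14.5) and Ltbr (7.99) followed, each apart from its neighbours. Tnfrsf4, Fas, Tnfrsf9 and Tnfrsf13c formed the lowest group at 4.11 to 3.26 FPKM, with overlapping ranges. After SRBC, Tnfrsf1b (149 FPKM) and Cd40 (141) stood apart from all others, with overlapping ranges between them. Together these receptors made up 37.9% and 37.7% of the summed FPKM of the 10 members in the PBS libraries and 68.3% and 66.4% in the SRBC libraries. Fas and Tnfrsf9 moved past Tnfrsf4, which with Tnfrsf13c stayed lowest.

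Euclidean distance to Cd40 was taken over the 4 libraries, on log2(FPKM + 1) values centred on each locus' mean. The loci nearest in pattern were sought among tested loci with a single gene name. They were Kdm5c (distance 0.056), an X-linked histone demethylase gene, Ehf (0.099), an ETS family transcription factor, Slc15a2 (0.12), a peptide transporter, Nrp2 (0.13), a neuropilin, and Lrp8 (0.15), a lipoprotein receptor. Kdm5c measured 12.4 and 13.7 FPKM after PBS and 67.0 and 64.7 after SRBC. Among the members Tnfrsf1b (0.23), Fas (0.48) and Tnfrsf9 (0.87) were closest to Cd40. With 4 libraries in 2 groups, such likeness reflects mainly the size of the difference between groups.

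Other TNF receptor genes were read in the same way. Of 18 further receptor genes, which fell on 17 loci, 8 loci passed the filter, 0 were called higher and 1 lower, with a median log2 fold change of -0.089 beside 0.070 for all tested loci. These counts stand beside shares of 13.5% higher and 6.2% lower over all tested loci, and the difference from the 10 members was not tested. The called locus was Tnfrsf13b, which encodes TACI, a receptor for BAFF and APRIL. Tnfrsf13b measured 24.4 and 27.0 FPKM after PBS and 7.09 and 11.7 after SRBC (log2 fold change -1.40 ± 0.25 SE, limma adjusted p = 9.1e-05), and it was called lower in all 13 alternatives. Tnfrsf14, the receptor for LIGHT also called HVEM, measured 29.3 and 38.6, then 42.7 and 36.9 FPKM and was not called. Eda2r, Edar and Tnfrsf17 were listed at 0 in all 4 libraries.

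The ligands of the 10 receptors were read in the same libraries. Of 11 ligand genes 7 passed the filter, and 5 of these were called higher and 0 lower, or 5 and 1 with upper-quartile or TPM rescaling and 4 and 1 after quantile normalization. Over all 11020 tested loci 13.5% were called higher and 6.2% lower, and the difference of the ligands from these shares was not tested. Tnfsf9, the ligand of 4-1BB, measured 3.50 and 5.33 FPKM after PBS and 84.4 and 86.7 after SRBC, a 19.4-fold rise beside the 3.40-fold rise of its receptor. Tnfsf4, the OX40 ligand, went from 0.137 and 0.128 to 7.94 and 10.3 FPKM (log2 fold change 3.15 ± 0.29 SE, limma adjusted p = 6.7e-10), while its receptor Tnfrsf4 was not called. The authors' deposited table gave Tnfsf4 a q of 0.0933.

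Tnf, the ligand of both TNF receptors, measured 36.6 and 18.5 FPKM after PBS and 76.3 and 92.1 after SRBC, a 3.06-fold rise that missed the threshold under quantile normalization alone (limma adjusted p = 0.055, with 8.4e-12 the smallest over the alternatives). Of the ligands that bind the lymphotoxin beta receptor, Tnfsf14 (LIGHT) rose from 1.97 ± 0.817 to 9.39 ± 0.889 FPKM (log2 fold change 1.83 ± 0.28 SE), and Lta, whose product is also secreted as a ligand of the TNF receptors, rose from 1.88 and 4.64 to 10.6 and 9.34. The Lta call was lost with no filter on low values (adjusted p = 0.083; over the alternatives adjusted p ran from 2.0e-09 to 0.083). Ltb, the membrane-anchored partner of Lta, measured 41.9 and 57.2, then 33.5 and 45.7 FPKM (log2 fold change -0.32 ± 0.23 SE), and was called lower under 3 rescalings only. Fasl measured 1.47 and 1.09, then 1.49 and 1.10 FPKM and was not called. Ligands that did not pass the filter were Cd40lg (0 to 0.159 FPKM), Tnfsf18 (0.232 to 0.388), Tnfsf11 (0 to 0.0501) and Tnfsf13b, which was listed at 0 in 3 libraries and at 0.558 in PBS library 2. For Cd40, Tnfrsf11a and Tnfrsf18, therefore, receptor transcripts were present without appreciable transcripts of their ligands in the same libraries. These ligands were Cd40lg (CD40 ligand), Tnfsf11 (RANK ligand) and Tnfsf18. The same held for Tnfrsf13c and Tnfsf13b outside PBS library 2.

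**Figure D4:**
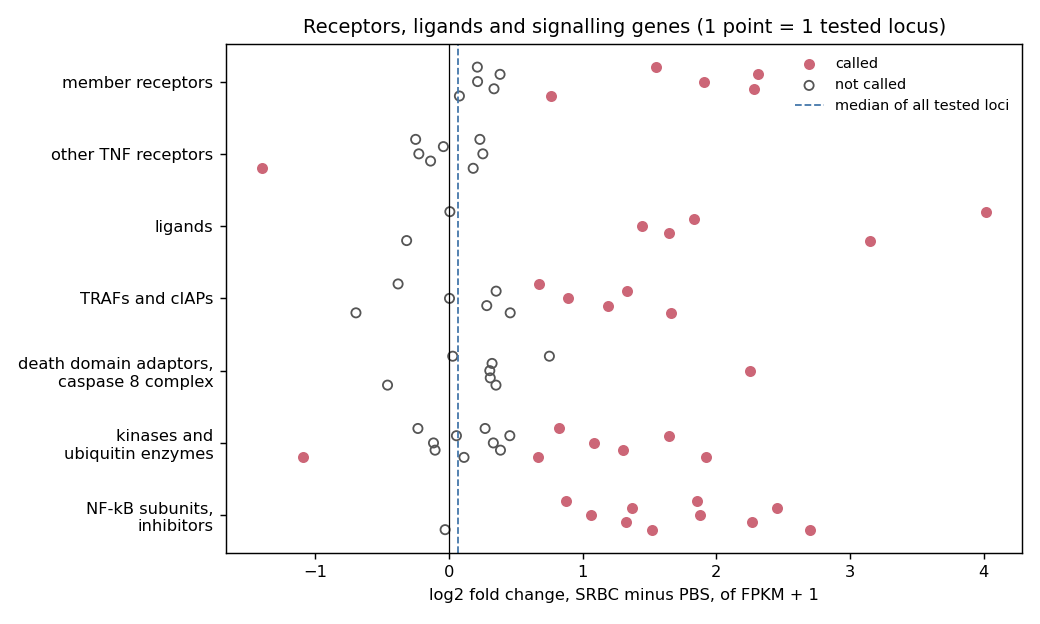
Log2 fold change (SRBC minus PBS, of FPKM + 1) of the tested loci of each group, 1 point per locus, filled red where called and open where not, with a dashed line at the median of all tested loci (0.070). The 5 called ligands lie between 1.44 and 4.02, the only called locus among the other TNF receptors lies at -1.40, and 10 of the 11 NF-kB loci lie to the right.

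Adaptors that TNF receptors recruit were called higher in 5 of 11 tested loci of TRAF and cIAP genes and lower in 0, or 3 and 0 after quantile normalization and 3 and 1 with TPM rescaling or without PBS library 1. Traf1, an adaptor that binds TRAF2 at CD40 and 4-1BB, rose 3.17-fold from 122 ± 13.0 to 386 ± 25.0 FPKM (limma adjusted p = 1.4e-06). Tank, a TRAF-binding protein, rose 2.49-fold, Traf6, the adaptor through which CD40 activates further kinases, 2.40-fold and Birc3, the ubiquitin ligase cIAP2, 1.85-fold. The Birc3 call was lost after quantile normalization (log2 fold change 0.28 in place of 0.89), with TPM rescaling and without PBS library 1, with adjusted p from 0.0012 to 0.24 over the alternatives. Traf2 went from 9.21 to 15.3 FPKM at an adjusted p of 0.048, a call lost in 8 of 13 alternatives (adjusted p from 0.028 to 0.46). Over all 11020 tested loci, 1488 (13.5%) were called higher, or 922 after quantile normalization and 635 with TPM rescaling. No difference of a gene list from that share was tested. Among death domain adaptors and genes of the caspase 8 complex, 1 of 8 tested loci was higher and 0 lower. This was Cflar, which encodes the caspase 8 inhibitor FLIP, at 49.3 and 66.2 FPKM after PBS and 282 and 270 after SRBC, a 4.79-fold rise (limma adjusted p = 3.5e-09). Fadd, the adaptor of Fas, measured 2.52 and 4.28, then 3.43 and 5.57 FPKM and Casp8 23.0 and 31.3, then 27.3 and 27.6, and neither was called.

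Of 16 kinases and ubiquitin enzymes of receptor signalling, 6 were higher and 1 lower, or 3 and 2 after quantile normalization and 3 and 1 with TPM rescaling. Over all 11020 tested loci 13.5% were called higher and 6.2% lower. After quantile normalization 922 loci were higher and 930 lower, and with TPM rescaling 635 and 1640. No difference of this list or the NF-kB list below from those shares was tested. Map3k14, which encodes NIK, the kinase of the noncanonical NF-kB pathway below CD40 and the lymphotoxin beta receptor, rose 3.88-fold from 47.5 ± 0.425 to 184 ± 31.5 FPKM (limma adjusted p = 5.9e-08). The feedback inhibitor genes Tnfaip3 (A20) and Tnip1 rose 3.07-fold and 2.51-fold, the kinase gene Map3k8 2.13-fold and the deubiquitinase gene Otulin, listed as Fam105b, 1.78-fold. Quantile normalization and TPM rescaling ended the calls of Map3k8 (adjusted p up to 0.11) and Otulin (up to 0.19), and Otulin also missed the threshold without SRBC library 1. Tab1, a partner of the kinase TAK1, fell from 4.60 ± 0.846 to 1.63 ± 0.480 FPKM (log2 fold change -1.09 ± 0.29 SE), a call lost without SRBC library 2 (adjusted p = 0.19, the highest over the alternatives) or with no filter. Of NF-kB subunits and inhibitors, 10 of 11 were higher and 0 lower, or 8 and 0 after quantile normalization and 9 and 0 with TPM rescaling. The 6 with the smallest p began with the cofactor gene Bcl3 (6.60-fold), Nfkbid (5.29-fold) and the subunit gene Rel (4.87-fold). The inhibitor genes Nfkbib (3.72-fold) and Nfkbia (3.67-fold) followed, then the locus shared by Nfkbie and Slc35b2 (log2 fold change 1.52). Reads of that locus cannot be assigned to either gene. The authors' deposited table gave Rel a q of 0.115, Otulin 0.153, Tab1 0.0709 and Traf2 0.0624. The other called adaptor, kinase and NF-kB genes named had a q under 0.05.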

How the data were processed

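RNA from sorted splenic CD4+ dendritic cells, 100 ng per library, was sequenced by the authors on an Illumina HiSeq, per the labels. The authors deposited 1 FPKM value for each locus in each library, according to the file headers. Tools named in the submitters' processing notes are TopHat2 2.0.8b, Cufflinks 2.1.1 and CASAVA, with mm10 (GRCm38) as the build. The sources used here state no annotation, strandedness, library scaling or read totals, and FPKM without counts allows no counting intervals. The authors' deposited table also holds q-values (adjusted p-values) for the 2 groups, per the file headers.

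Columns were assigned to groups by name. Named loci with at least 1 FPKM in at least 2 libraries were tested (11020 loci, of which 366 carry several names). The test was limma 3.58.1 in R 4.3.3 (trended eBayes) on log2(FPKM + 1), two-sided, with Benjamini-Hochberg adjustment over all tested loci and a threshold of 0.05. With 2 against 2 libraries no permutation test can reach that threshold, and the fit leans on 28.7 prior beside 2 residual degrees of freedom. It was tested on simulated data. Coordinates come from GENCODE M21. A listed gene with several loci was represented by the one with the highest mean. Members and gene lists were chosen with earlier results of these data known. Named were all members, every ligand, per list up to 6 called genes by smallest p, and the 5 single-name loci nearest to Cd40. Tnfrsf14, Eda2r, Edar, Tnfrsf17, Fadd, Casp8 and single marker genes were chosen after their values were seen. The alternatives varied the pseudocount, filter, scaling, variance model and libraries used, or added the replicate number as a block.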

Additional observations from a re-analysis of the deposited data

How the results depend on the processing

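Cd40, Tnfrsf1b, Fas and Tnfrsf9 stayed called higher under all 13 alternatives, with log2 fold changes from 1.80 to 2.37, 1.79 to 2.47, 1.64 to 2.12 and 1.27 to 1.83. Ltbr kept its direction but was not called with no filter on low values (0.77), upper-quartile rescaling (0.54) or TPM rescaling (0.39), and lay between 0.63 and 0.90 with single libraries left out. The estimates of receptors that were never called changed sign. That of Tnfrsf1a was -0.019 with median-of-ratios, -0.16 with upper-quartile, -0.29 with quantile and -0.35 with TPM rescaling. With TPM rescaling those of Tnfrsf4, Tnfrsf18, Tnfrsf11a and Tnfrsf13c were -0.15, -0.074, -0.036 and -0.13. With a library left out Tnfrsf4 ran from -0.11 to 0.54, Tnfrsf18 from -0.11 to 0.78 and Tnfrsf13c from -0.20 to 0.63. Over all loci 2171 were called, 935 with no filter and 1035 (without SRBC library 2) to 2210 (without PBS library 2) with a library left out, or 1427 without SRBC library 1. Calls were 68.5% higher as deposited, 58.3% with median-of-ratios, 49.8% with quantile, 41.9% with upper-quartile and 27.9% with TPM rescaling, and the median log2 fold change moved from 0.070 to -0.32 with TPM. The replicate block called 2304 loci and the same number of members, 5; deviations of same-numbered libraries correlated at 0.052 over loci, so the numbers were not taken to pair libraries. Tnfrsf4 and Tnfrsf13c fell below the stricter filter. A lone library left in a group was assumed to vary like the other group. The causes of these shifts were not tested.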
